A study of Mus musculus with 6 samples.

Results

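The 8 genes described here encode chemokines (Cxcl1, Cxcl5, Ccl2, Ccl7, Cxcl10 and Cxcl12) and inflammatory cytokines (Csf1 and Il6). They are the 8 of 21639 entries of the deposited mouse RNA-Seq table that carry these symbols. They were chosen by their RPKM in embryonic stem cells (ESCs), where they differed between the lines. Their differences between lines in ESCs are therefore given as a description, with no test.

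Chemokines are small secreted proteins that attract leukocytes through seven-transmembrane receptors, the CXC ligands Cxcl1 and Cxcl5 acting mainly on neutrophils and the CC ligands Ccl2 and Ccl7 on monocytes. In fibroblasts and other stromal cells, Cxcl1, Cxcl5, Ccl2, Ccl7 and Il6 are classical targets of NF-kB downstream of interleukin 1, tumour necrosis factor and Toll-like receptors, whereas Cxcl10 also answers to interferon. Several of these mRNAs are short-lived because AU-rich elements in their 3′ UTRs recruit decay factors. Csf1 and Cxcl12 are produced by many stromal cells without an inflammatory stimulus, and undifferentiated mouse ESCs are known for a weak inflammatory response.

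RNA-Seq was performed on 6 libraries, 1 for each of 3 lines at 2 times. ESCs (D0) were V6.5 by their strain label (129SvJae crossed to C57BL/6), while the protocol names KH2 cells for the infection. Embryoid bodies (EBs) were collected after 3 days without LIF (D3). H2A.Z WT cells expressed a YFP-tagged wild-type H2A.Z, and H2A.Z AP3 cells a YFP-tagged H2A.Z in which 3 acidic patch residues were exchanged for those of H2A (G92N, D97N and S98K, numbered along H2A.Z). Both transgenes were switched on with 1 µg/ml doxycycline, and the transgenic cells were sorted for YFP. Doxycycline is not listed for the H2A.Z KD libraries, so that comparisons with them may also differ in this treatment. All 3 lines carried hairpins against the 3′ UTR of endogenous H2A.Z mRNA, and the third line, H2A.Z KD, was studied as the depleted line. ESCs were grown in serum and LIF on irradiated mouse embryonic fibroblasts and were taken off this feeder layer for the final passage only.

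Values are RPKM, reads per kilobase of transcript scaled to the mapped reads of the library. With 1 library per condition there is no replicate spread, so no p-value was computed, and a difference between libraries compares those libraries rather than the conditions. Depth was estimated from the steps between the lowest RPKM values at 19.6 M reads (WT D0) to 31.2 M reads (AP3 D0) per library. Between 16822 and 17170 entries were above 0. The 95% intervals given below come from the estimated reads behind each value and cover counting error only. H2afz, the targeted gene, was at 279 RPKM in WT, 343 in KD and 304 in AP3 in ESCs, and at 258, 236 and 394 RPKM in EBs. H2afz was not lower in KD at D0, so this line is called the library labelled KD, shortened to KD in orders of libraries, names of comparisons and figures. Reads from the transgenes and from endogenous H2afz coding sequence cannot be told apart in these values. All 7 ESC markers analysed were above 0 in each library and summed to 1664 to 2598 RPKM.

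All 8 genes had their highest level in AP3 ESCs and were lower, or listed at 0, in the EBs of each line. Summed over the 8 genes, RPKM at D0 was 43.0 in WT, 51.4 in the library labelled KD and 168 in AP3. At D3 the sums were 7.35, 6.46 and 9.16 RPKM in the same order. In AP3 against WT ESCs, 7 of the 8 passed 1.5-fold higher and 0 passed 1.5-fold lower on the log2((RPKM + 0.001)/(RPKM + 0.001)) scale, beside 11.1% of all entries higher and 13.9% lower. The median of the 8 log2 differences was 2.37, and that of all entries was 0. This is the contrast by which the genes were chosen, and nothing is read from the count. Of the genes near the threshold, Cxcl12 lay just inside at a log2 difference of 0.66 and Csf1 just outside at 0.53.

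**Figure D1:**
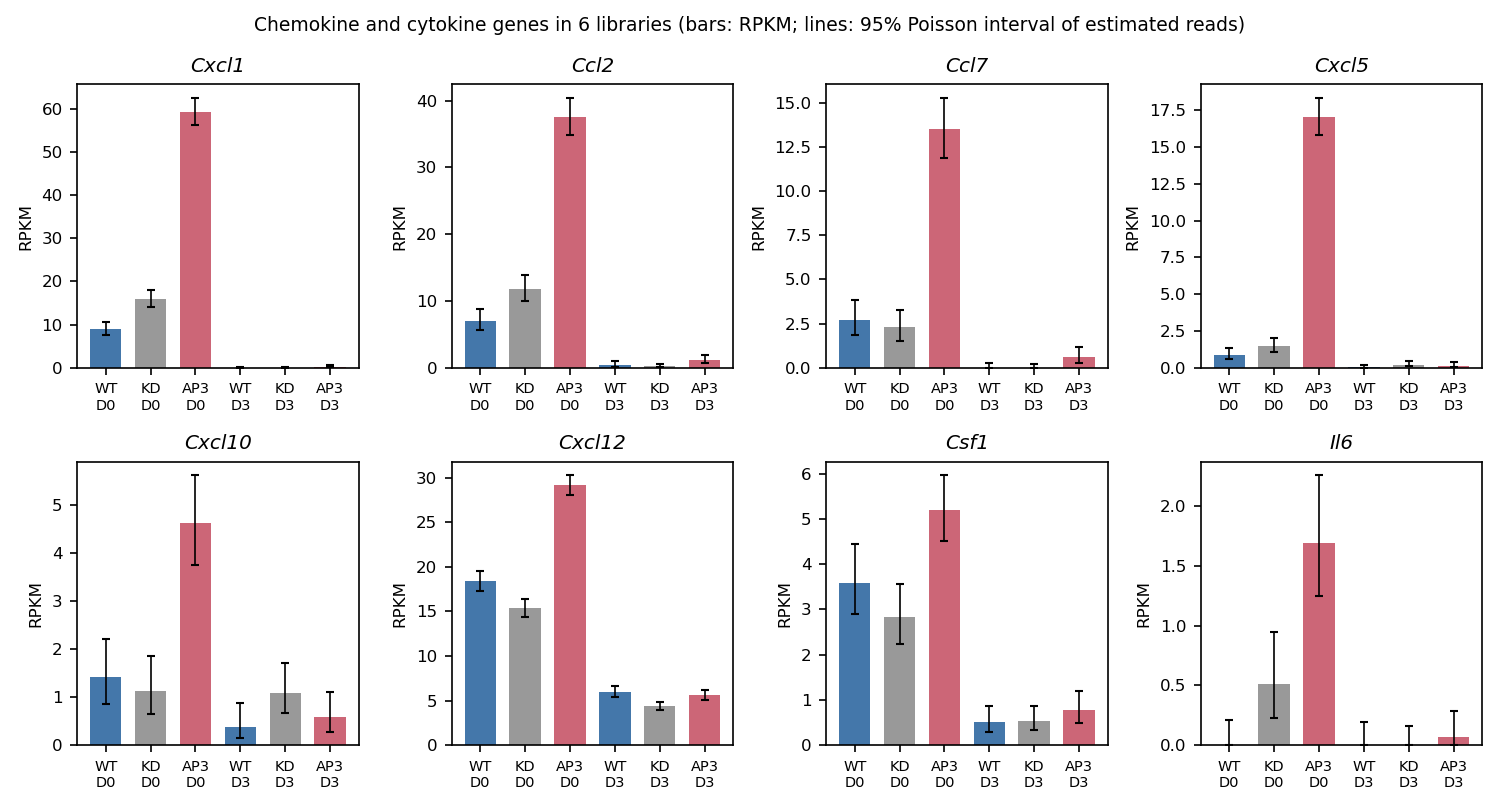
RPKM (bars, linear axes starting at 0, a separate scale per gene) of the 8 genes in the 6 libraries, with 95% Poisson intervals of the estimated reads as lines; there is 1 library per bar. The AP3 D0 bar is the tallest in each panel, from 1.69 RPKM for Il6 to 59.3 RPKM for Cxcl1.

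Of the genes above 0 in WT ESCs, the neutrophil-attracting ligands Cxcl5 and Cxcl1 had the largest ratios of AP3 to WT. Cxcl1 (ENSMUSG00000029380, mm9 chr5:91320271-91322139, plus strand, 4 exons) was at 8.94 RPKM in WT ESCs, 15.9 in the library labelled KD and 59.3 in AP3. In EBs it was listed at 0, 0 and 0.226 RPKM, the last resting on about 4 reads. The D0 order was AP3, then KD, then WT, and the counting intervals of these 3 libraries did not overlap. The AP3 value was 6.64 times the WT value (log2 difference 2.73, interval 2.47 to 3.0) and was based on about 1393 reads against 132. It ranked 10 among the increases of all 21639 entries on the log2((RPKM + 1)/(RPKM + 1)) scale.

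Cxcl5 (ENSMUSG00000029371, mm9 chr5:91188325-91190651, plus strand, 4 exons) had a higher ratio of AP3 to WT than Cxcl1. Its RPKM at D0 was 0.893 in WT, 1.47 in the library labelled KD and 17.0 in AP3. At D3 it was 0.0487, 0.211 and 0.148 RPKM. The AP3 ESC library therefore stood alone, and the WT and KD-labelled D0 libraries overlapped in their counting intervals, as did the 3 EB libraries, which rest on about 1, 8 and 5 reads. The ratio of AP3 to WT at D0 was 19.1 (log2 difference 4.25, interval 3.68 to 4.92), rank 3 among all increases.

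Ccl2 and Ccl7, the monocyte-attracting pair, lie 8.26 kb apart. Ccl2 (ENSMUSG00000035385, mm9 chr11:81849079-81850954, plus strand, 3 exons) was at 7.05 RPKM in WT, 11.9 in the library labelled KD and 37.6 in AP3 in ESCs, and at 0.454, 0.260 and 1.15 RPKM in EBs. As for Cxcl1, the D0 libraries were ordered AP3, KD, WT with no overlap of their counting intervals. Ccl2 was 5.33 times as high in AP3 as in WT (log2 difference 2.41, interval 2.08 to 2.75, rank 12). Ccl7 (ENSMUSG00000035373, mm9 chr11:81859214-81861023, plus strand, 3 exons) was at 2.70, 2.32 and 13.5 RPKM in ESCs and at 0, 0 and 0.628 RPKM in EBs. Here the WT and KD-labelled libraries overlapped and only AP3 stood above them, at 5.00 times the WT level (log2 difference 2.32, interval 1.78 to 2.89, rank 19).

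Cxcl10, the interferon-inducible attractant of activated T cells, was at 1.41 RPKM in WT, 1.13 in the library labelled KD and 4.61 in AP3 at D0. At D3 its RPKM was 0.376, 1.08 and 0.591. The AP3 D0 library was the only one clear of the others, at 3.27 times WT (log2 difference 1.71, interval 0.99 to 2.50, rank 79). The deposited locus of this entry, chr5:92760867-92843653, is shared with Art3 and Cxcl11, and the annotated Cxcl10 gene (ENSMUSG00000034855, chr5:92775664-92777908) runs on the minus strand inside Art3. The sources used here do not state strand-specific counting, so the Cxcl10 value is uncertain to the extent that reads of overlapping genes were assigned to it. Art3 itself was at or under 0.0922 RPKM in each library. Cxcl11 was at 0.0477, 0.115 and 0.237 RPKM in ESCs and 0.371, 0.0840 and 0.431 RPKM in EBs, where its WT and AP3 levels were near those of Cxcl10.

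Cxcl12, the ligand of Cxcr4 that guides progenitor and stem cells, was the most abundant of the 8 genes in WT ESCs. Cxcl12 (ENSMUSG00000061353, mm9 chr6:117118553-117131386, plus strand, 4 exons) was at 18.4, 15.4 and 29.2 RPKM in WT, the library labelled KD and AP3 in ESCs, and at 5.97, 4.38 and 5.59 RPKM in EBs. Each D0 library was above each D3 library, but the differences among lines were small beside those of Cxcl1. Cxcl12 in AP3 was 1.58 times WT at D0 (log2 difference 0.66, interval 0.56 to 0.77).

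Csf1, the growth factor of macrophages (ENSMUSG00000014599, mm9 chr3:107543966-107563387, minus strand, 9 exons), was at 3.60, 2.83 and 5.20 RPKM at D0 and 0.501, 0.528 and 0.770 RPKM at D3. Its AP3 to WT ratio at D0 was 1.45 (log2 difference 0.53, interval 0.16 to 0.90). Il6, a cytokine of the acute phase response (ENSMUSG00000025746, mm9 chr5:30339701-30346508, plus strand, 5 exons), was listed at 0 in WT ESCs and was at 0.507 RPKM in the library labelled KD and 1.69 in AP3. In EBs it was 0, 0 and 0.0631 RPKM. The 3 D0 values of Il6 rest on about 0, 9 and 47 reads, and no fold is given against the library at 0. Il6 is among the 7 genes past 1.5-fold, with a lower counting bound of 2.94 on the log2 scale.

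The abundance order of the 8 genes thus differed between lines in ESCs. In WT, Cxcl12 (18.4 RPKM) led Cxcl1 (8.94 RPKM) and Ccl2 (7.05 RPKM), and the counting intervals of Cxcl1 and Ccl2 overlapped. Cxcl1 (15.9 RPKM) and Cxcl12 (15.4 RPKM) overlapped in their counting intervals in the library labelled KD. In AP3, Cxcl1 (59.3 RPKM) and Ccl2 (37.6 RPKM) were both above Cxcl12 (29.2 RPKM), with no overlap, and Cxcl5 and Ccl7 were above Csf1. RPKM is scaled by transcript length, so these levels can be set side by side between genes.

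The library labelled KD was compared with WT at D0, and this comparison shares the WT library with the one above. Of the 8 genes, 4 were past 1.5-fold higher and 0 lower, against 8.96% and 10.7% of all entries. These were Cxcl1 (1.78 times WT, log2 difference 0.83, interval 0.52 to 1.15), Ccl2 (1.68 times, 0.75, interval 0.36 to 1.15), Cxcl5 (1.65 times, 0.72, interval -0.01 to 1.54) and Il6, which was listed at 0 in WT. Ccl7, Cxcl10, Cxcl12 and Csf1 had log2 differences of -0.22, -0.32, -0.26 and -0.34, all within 1.5-fold. With 1.5-fold replaced by 2-fold, 1 gene (Il6) remained past the threshold. Of the 4 genes with negative differences, Ccl7, Cxcl10 and Csf1 had counting intervals that include equal levels. Since the genes were chosen on D0 differences between lines, nothing more is read from this pair of libraries. In AP3 against the library labelled KD at D0, 8 of 8 genes were past 1.5-fold higher and 0 lower, against 13.5% of all entries in either direction, from 1.84 times for Csf1 to 11.6 times for Cxcl5.

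**Figure D2:**
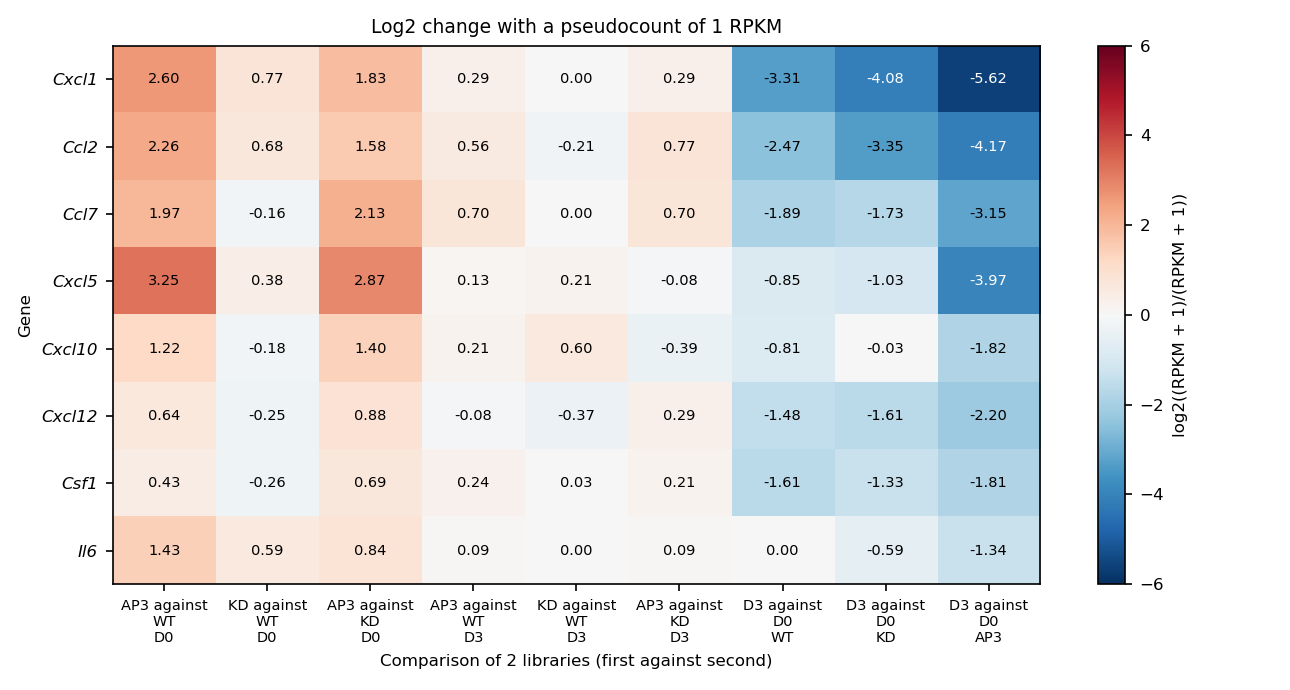
Log2 differences of the 8 genes (rows) in the 9 comparisons of 2 libraries (columns), computed as log2((RPKM + 1)/(RPKM + 1)), with the colour scale at the right; comparisons share libraries. Cxcl5 reaches 3.25 in AP3 against WT at D0, values among lines at D3 lie between -0.39 and 0.77, and Cxcl1 is at -5.62 in D3 against D0 of AP3.

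Promoter sequence was examined in the members for which it was found. Several of the 8 genes are known targets of NF-kB, so the shares below describe the chosen family and are no separate support. RefSeq promoters (GRCm38.p6, from 250 bases before to 50 after the start) were found for 5 members (Cxcl1, Cxcl10, Cxcl12, Csf1 and Il6), and each matched NCBIM37, the mm9 assembly, at 1 place. The NF-kB consensus, searched on both strands, was present in 4 of the 5 (not in Cxcl12), against 4.51% of 32851 RefSeq promoters of the same length. The interferon-stimulated response element core (GAAA, any 2 bases, then GAAA) was in the Cxcl10 promoter alone (3.44% of all promoters), the AP-1 site TGANTCA in Il6 and Cxcl10 (7.81%), and TATAAA in 0 of the 5 (13.6%). Windows of 30 bases around the NF-kB matches are shown on the strand of the gene, 5′ to 3′, with the match in capitals, because these letters are what the promoters of Cxcl1, Il6, Cxcl10 and Csf1 have in common.
Cxcl1, chr5:91320190-91320219, plus strand: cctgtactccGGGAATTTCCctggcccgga
Il6, chr5:30339600-30339629, plus strand: tatcaaatgtGGGATTTTCCcatgagtctc
Cxcl10, chr5:92777999-92778028, minus strand: cggtttacagGGGACTTCCCtcgggttgcg
Cxcl10, chr5:92778055-92778084, minus strand: agaggggagaGGGAAATTCCaagttcatgg
Csf1, chr3:107563522-107563551, minus strand: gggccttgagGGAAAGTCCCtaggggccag
The Csf1 match reads on the strand opposite to the gene, and the Cxcl1 site matched on both strands with an offset of 1 base, which is 1 overlapping site. The response element core of Cxcl10 lies 213 bases before the start, and its capitals mark the match.
Cxcl10, chr5:92778109-92778138, minus strand: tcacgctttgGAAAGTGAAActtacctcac
A match is a description of the letters. No binding was measured in these files.

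AU-rich motifs were counted in the 3′ UTRs of all 8 genes in the GENCODE annotation of NCBIM37. Cxcl1 had 7 copies of ATTTA in 592 bases, and 0.387% of 2068 UTRs of similar length had as many. Il6 had 5 copies in 420 bases (0.915% of UTRs of similar length), and the other 6 genes had 1 to 5 copies, as many as 11.3% to 85.1% of their length classes. Cxcl1 was the only one of the 8 with the nonamer TTATTTATT, present in 2 copies and in 6.49% of 19915 3′ UTRs. The window of 30 bases below holds 4 of its ATTTA copies, in capitals.
Cxcl1, 3′ UTR, chr5:91321628-91321657, plus strand: gagggtcctATTTATTTAtgtATTTATTTA

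The position of the members in their chromosomal clusters was then compared with that of their neighbours. Cxcl5 and Cxcl1 lie 130 kb apart on chromosome 5. Ppbp, Pf4 and Cxcl3, which lie between them, were listed at 0 in all 6 libraries, and Cxcl15 was at or under 0.154 RPKM. Cxcl2, 10.8 kb beyond Cxcl1, was at 0.0619, 0.399 and 0.476 RPKM at D0 in WT, the library labelled KD and AP3, and at 0 in the EB libraries. On chromosome 11, Ccl11, Ccl12, Ccl8 and Ccl1, which follow Ccl2 and Ccl7 in that order, were listed at 0 in all D0 libraries. Cxcl9, next to Cxcl10, was at 0.0848, 0.0802 and 0.0505 RPKM at D0. In the clusters of Cxcl5 and Ccl2, the 4 members were above 1 RPKM in AP3 ESCs and the other ligand genes below 0.5 RPKM, which restates the choice of the members by their RPKM in ESCs.

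**Figure D3:**
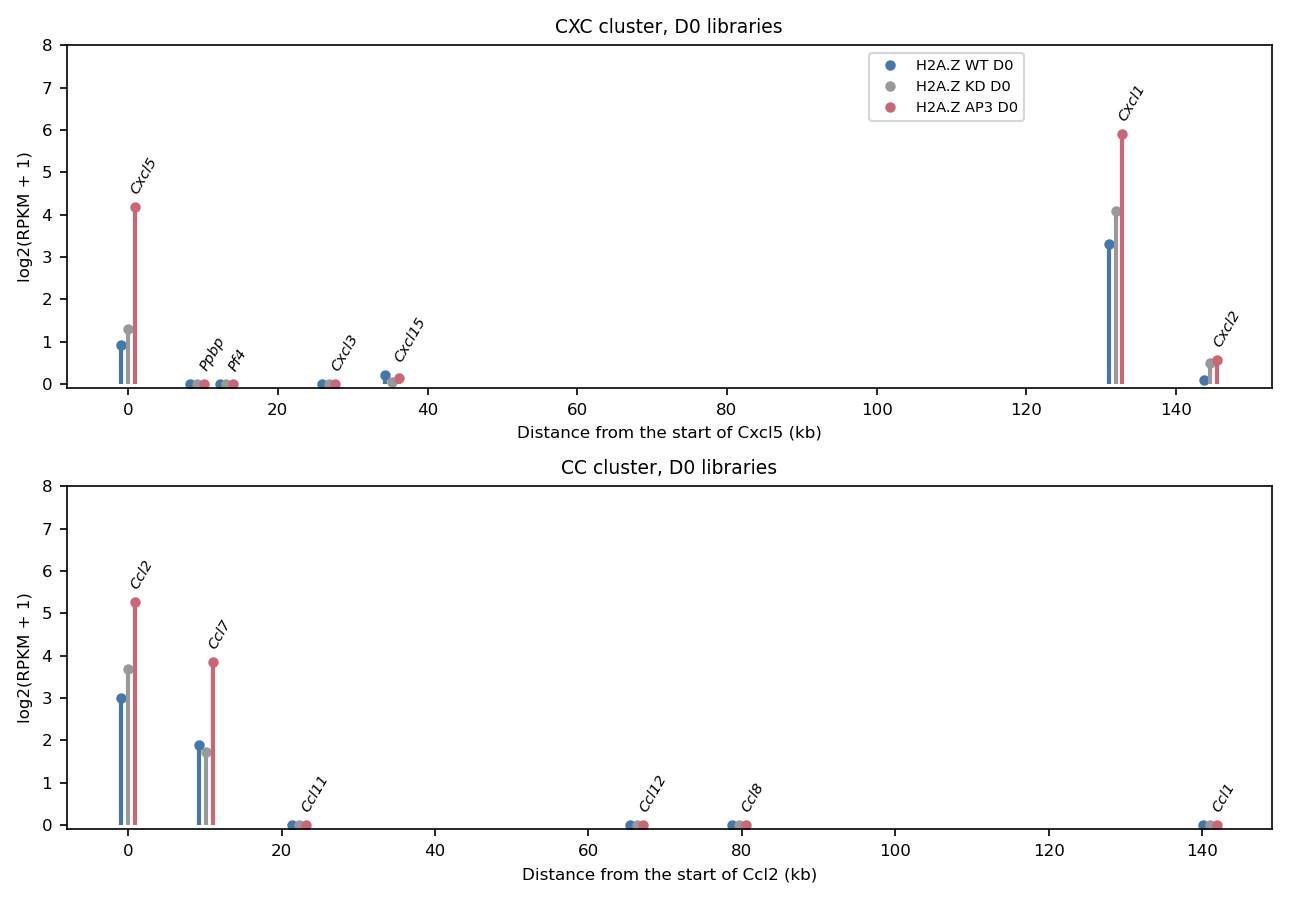
Level as log2(RPKM + 1) of the chemokine genes in the cluster of Cxcl5 and Cxcl1 (top) and of Ccl2 and Ccl7 (bottom), against distance in kb from the start of the first gene, in the 3 D0 libraries (1 library per colour). Cxcl5, Cxcl1, Ccl2 and Ccl7 stand above the axis and the genes between and beyond them are at or below 0.476 RPKM in these libraries.

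The other chemokine ligands were taken by their symbols (Ccl, Cxcl, Cx3cl or Xcl and a number), which gave 37 entries and leaves out ligands under other names such as Ppbp and Pf4. In AP3 against WT at D0, 7 entries were higher and 14 lower past 1.5-fold, many of them at values near 0, and 9 of the 14 are repeated loci of Ccl19 and Ccl21 genes. Counted by symbol after the values were seen, 7 were higher and 8 lower. Over the 37 entries the median log2 difference was 0. Only 6 of them reached 1 RPKM in either library. Ccl5, which attracts T cells and monocytes, was at 0.692, 1.15 and 11.0 RPKM at D0 and 0, 0 and 0.12 RPKM at D3, so AP3 was 16.0 times WT in ESCs. Like Cxcl5, Ccl5 was above 10 RPKM in the AP3 ESC library alone. Cxcl16 was at 2.71, 4.02 and 4.99 RPKM at D0 but stayed at 4.84, 6.99 and 4.56 RPKM at D3. Ccl27a went the other way, with 4.47, 2.39 and 2.08 RPKM at D0. Ccl25 (2.23, 2.74 and 1.90 RPKM), Cx3cl1 (1.89, 1.64 and 2.52 RPKM) and Cxcl14 (1.57, 1.66 and 2.31 RPKM) were within 1.5-fold of WT in AP3.

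Receptors for these ligands were mostly at or near 0. Of 14 receptor genes, 1 was higher and 3 were lower past 1.5-fold in AP3 against WT ESCs, and 7 were listed at 0 in WT and 7 in AP3. Il6st, the signal-transducing subunit shared by the receptors for Il6 and LIF, was at 21.4, 23.4 and 25.6 RPKM in ESCs and at 15.2, 17.4 and 13.7 RPKM in EBs. Cxcr2, the receptor of Cxcl1 and Cxcl5, was at 5.76, 6.31 and 3.8 RPKM at D0. Cxcr7 and Cxcr4, the receptors of Cxcl12, were at 1.84, 1.51 and 2.33 RPKM and at 0.693, 0.784 and 0.639 RPKM. Csf1r, the receptor of Csf1, was at or under 0.121 RPKM in each library, and the Ccl2 receptor Ccr2 was at or under 0.135 RPKM.

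Genes of the NF-kB pathway, which carries the signal to several of these promoters, were compared in the same way. Of 30 pathway and feedback genes, 10 were higher and 1 was lower past 1.5-fold in AP3 against WT at D0, with a median log2 difference of 0.30. Of all entries, 11.1% were higher and 13.9% lower in this contrast, shares that stand beside the counts of the other lists too. Rela, Relb, Nfkb1 and Nfkb2 were at 1.00, 0.97, 1.10 and 1.22 times WT in AP3, and Rel was the 1 lower, at 0.449. In the library labelled KD against WT, 0 were higher and 2 were lower (median -0.02). The part of NF-kB in the levels of the 8 genes was not tested. Vcam1, an adhesion receptor for leukocytes, was at 3.16, 2.47 and 9.31 RPKM in ESCs and at 0.218, 0.0629 and 0.156 RPKM in EBs. Nfkbia, the inhibitor that NF-kB induces against itself, was at 33.7, 34.4 and 50.6 RPKM at D0 (AP3 to WT ratio 1.5). Cebpd, a transcription factor of the acute phase response, was at 2.12, 1.4 and 6.20 RPKM. Zfp36, which binds AU-rich elements and promotes mRNA decay, was lower in AP3, at 44.5, 37.6 and 30.3 RPKM, within 1.5-fold of WT.

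Among 28 interferon response genes, 12 were higher and 4 were lower past 1.5-fold in AP3 against WT ESCs (median log2 difference 0.36). The list includes Cxcl9 and Cxcl11, which are also among the other ligands. In the library labelled KD against WT, 2 were higher and 10 were lower (median -0.36). The antiviral gene Ifit1 was at 1.38, 0.514 and 4.24 RPKM at D0, and Ifi27l1 at 2.59, 0.856 and 6.56 RPKM. Both had their lowest D0 level in the KD-labelled library. Bst2, the antiviral tether, was at 85.0, 80.4 and 113 RPKM, and Irf1, a transcription factor of the pathway, was lower in AP3, at 15.7, 18.0 and 9.42 RPKM.

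Other inflammatory cytokines showed no common direction. Of 16 genes, 7 were higher and 5 were lower past 1.5-fold in AP3 against WT at D0, with a median log2 difference of -0.10. Lif, the cytokine that also sustains ESCs, was at 3.97, 4.56 and 9.68 RPKM in ESCs and at 2.41, 2.25 and 3.24 RPKM in EBs. Il33, an alarmin, was at 0.948, 0.928 and 2.60 RPKM at D0. Mif was the most abundant, at 598, 498 and 520 RPKM. Ltb was lower in AP3, at 1.34, 1.23 and 0.380 RPKM.

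Across the 6 libraries, the gene most like Cxcl1 was Ccl2, and the next were genes of the matrix and the cell membrane. Likeness was the smallest distance between centred log2(RPKM + 1) values, among 9083 genes with at least 5 RPKM in 1 library. It uses the RPKM by which Cxcl1 and Ccl2 were chosen, so it describes their pattern and is no separate support for it. Ccl2 lay at 1.3 from Cxcl1, followed by Emp1 (2.13), Thbs1 (2.20), Bgn (2.29) and Col1a2 (2.36). Nearest to Ccl2 were Col1a2 (1.27), Cxcl1 (1.3), Thbs1 (1.32), Emp1 (1.33) and Bgn (1.41). Col1a2, a chain of type I collagen, was at 12.9, 11.8 and 22.5 RPKM in ESCs and at 1.3, 0.591 and 2.36 RPKM in EBs. Thbs1, the matrix glycoprotein thrombospondin 1, was at 16.8, 11.6 and 24.9 RPKM at D0 and Bgn, the matrix proteoglycan biglycan, at 35.5, 21.9 and 49.8 RPKM. Their high D0 and low D3 levels and their maximum in AP3 follow from the way they were picked. Emp1, Thbs1, Bgn and Col1a2 were lower in the KD-labelled library than in WT, where Cxcl1 and Ccl2 were higher.

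Markers of other cells were examined because the ESCs had grown on fibroblasts. Of 16 fibroblast and feeder markers, 8 were higher and 1 was lower past 1.5-fold in AP3 against WT at D0, and 1 was higher and 4 were lower in the library labelled KD against WT. Their summed level was 158, 149 and 325 RPKM at D0 and 316, 420 and 267 RPKM at D3. Sparc, which endoderm also expresses, made up most of it, at 98.3, 102 and 237 RPKM at D0. Without Sparc, left out after its values had been seen, the other 15 markers summed to 59.3, 47.8 and 88.3 RPKM at D0 and to 19.4, 11.2 and 18.2 RPKM at D3. The AP3 to WT ratio of the marker sum at D0 was 2.06 for all 16 and 1.49 without Sparc. In the KD-labelled library the marker sum was 0.947 of WT with Sparc and 0.805 without it. The summed chemokine and cytokine genes were at 3.91 times WT in AP3 and 1.2 times WT in the KD-labelled library. These 8 genes were chosen on the D0 values, so their ratios are not weighed against those of the markers. Dcn was at 0.321 RPKM in WT, 0.178 in the KD-labelled library and 2.46 in AP3, Lox was at 1.89, 1.69 and 6.58 RPKM, and Col1a1 at 9.76, 7.42 and 15.5 RPKM. Another 7 markers were within 1.5-fold of WT in AP3, from 0.860 of WT for Twist2 to 1.38 for Pdgfrb, with Thy1 at 0.996 and S100a4 at 0.904. Lum was at 0 in the WT and Postn at 0 in the AP3 ESC library. The part of feeder cells in the levels of the 8 genes was not tested, and more cells of a type cannot be told apart from more RNA per cell in these bulk libraries.

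Endoderm markers were examined as well. Of 10 parietal and visceral endoderm markers, 7 were higher and 0 lower past 1.5-fold in AP3 against WT ESCs, and 5 were higher and 0 lower in the library labelled KD against WT. Their summed level was 65.9, 81.2 and 175 RPKM at D0 and 237, 382 and 206 RPKM at D3. From D0 to D3, 10, 10 and 5 of the 10 markers were past 1.5-fold higher in the WT, KD-labelled and AP3 lines, and 0 were lower. The AP3 sum at D3 was 1.18 times that at D0. Of these markers, Col4a1 was at 15.0, 20.3 and 52.4 RPKM at D0, and Gata4 at 3.24, 4.94 and 12.1 RPKM. Macrophage and leukocyte markers (10 genes) summed to 7.29 to 14.3 RPKM, and Cd68 was the most abundant of them in each library. In AP3 against WT ESCs, 4 were higher and 2 lower past 1.5-fold. Cd14, a lipopolysaccharide co-receptor, was at 0.590, 0.681 and 1.66 RPKM at D0, and Aif1 (0.211 RPKM), Tyrobp (0.0574 RPKM) and Fcgr1 (0.0364 RPKM) were above 0 in AP3 and listed at 0 in WT. The 2 lower were Csf1r (0.121 RPKM in WT and 0.0169 in AP3) and Ptprc (0.0498 and 0 RPKM). The estimated depth of the AP3 D0 library was 1.59 times that of WT D0, so a gene near 0 is more readily listed above 0 in AP3. Emr1 was at 0 in all libraries and Ptprc at or under 0.0498 RPKM. Endothelial markers (6 genes) summed to 8.95 to 15.7 RPKM, with 0 higher and 2 lower in AP3 against WT ESCs. The part of endoderm or leukocyte cells in the result was not tested.

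**Figure D4:**
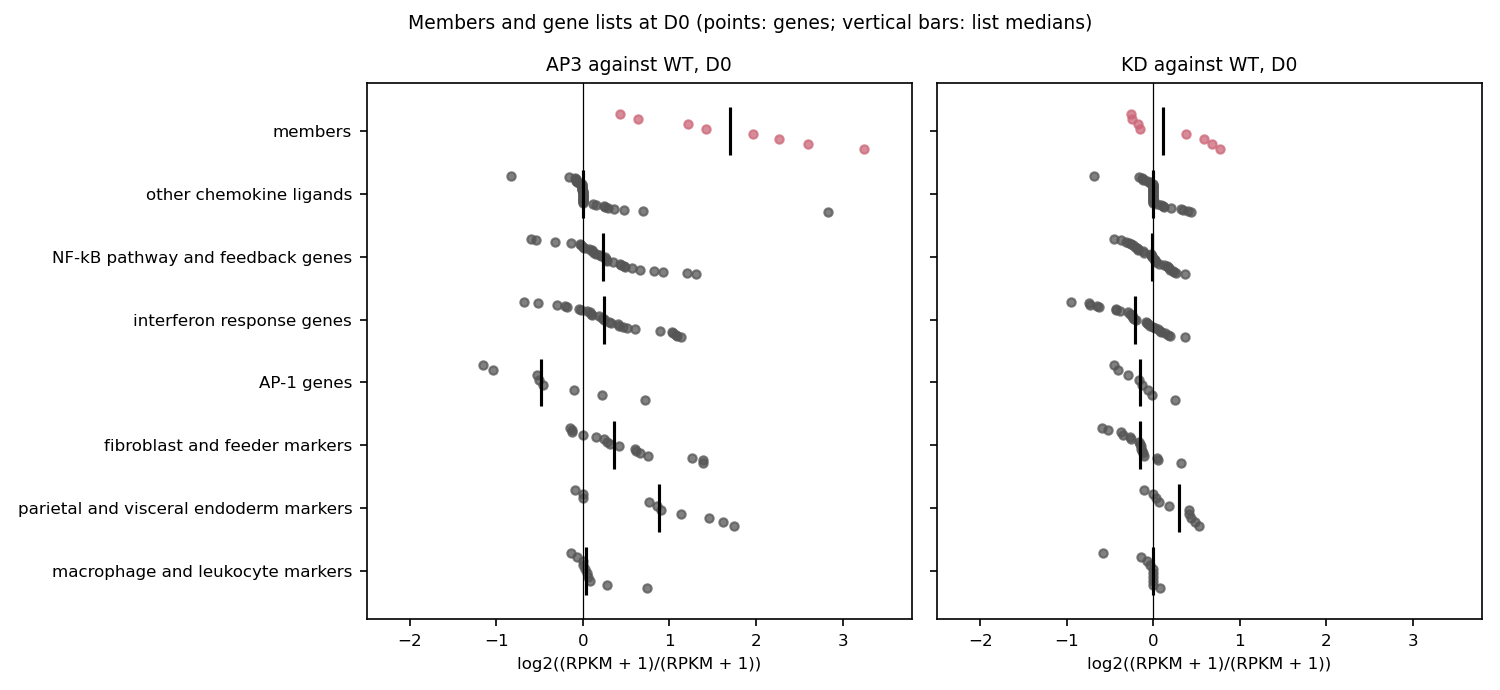
Log2((RPKM + 1)/(RPKM + 1)) of each gene (points) in the 8 members and in 7 gene lists, for AP3 against WT (left) and KD against WT (right) at D0, with list medians as vertical bars. Members reach 3.25 in AP3 and Ccl5 is the farthest point of the other ligands; in KD against WT, Cxcl1 is the farthest member at 0.77.

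In EBs the differences between lines rested on few reads for every member but Cxcl12. In AP3 against WT at D3, 7 of the 8 genes were past 1.5-fold higher and 0 lower, against 10.4% of all entries higher and 11.7% lower. Only 2 of the 8 (Ccl2 and Cxcl12) reached 1 RPKM in either library. Of these, Ccl2 was 2.52 times as high in AP3 (interval -0.04 to 3.03 on the log2 scale) and Cxcl12 had a log2 difference of -0.09 (interval -0.31 to 0.11). Among the rest, the counting interval excluded equal levels for Ccl7, which was listed at 0 in WT and rested on about 8 reads in AP3, and included them for Cxcl1, Cxcl5, Cxcl10, Csf1 and Il6. The count of 7 is therefore not separable from counting error for most of its genes.

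The library labelled KD against WT at D3 gave 2 genes higher and 1 lower past 1.5-fold (9.41% and 11.3% of all entries). Cxcl10 was 2.88 times as high (interval 0.10 to 3.07 on the log2 scale) on about 20 reads against 6. Cxcl5 was higher on about 8 reads against 1 and Ccl2 lower on about 4 against 6, both with intervals that include equal levels. Cxcl12 was within 1.5-fold, at a log2 difference of -0.45 (interval -0.66 to -0.23). For AP3 against the KD-labelled library at D3, 4 genes were higher and 1 lower (11.6% and 11.1% of all entries), of which Ccl2 (4.41 times, interval 0.61 to 4.28) and Ccl7 (listed at 0 in the KD-labelled library) had intervals clear of equal levels.

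From D0 to D3 most of the 8 genes were lower in every line. In WT, 7 of 8 were past 1.5-fold lower and 0 higher (16.5% and 14.1% of all entries), Il6 being listed at 0 at both times. In the line labelled KD, 7 of 8 were lower and 0 higher (16.2% and 14% of all entries), and Cxcl10 stayed at 1.13 and 1.08 RPKM. In AP3, 8 of 8 were lower and 0 higher (16.3% and 14.7% of all entries). The D0 libraries are those in which the genes were chosen, so the count for AP3 in particular starts from values that the choice favoured. Cxcl1 in AP3 was 263 times as high at D0 as at D3 (log2 difference -8.03, interval -9.84 to -6.60), which ranked 1 among the decreases of all entries on the log2((RPKM + 1)/(RPKM + 1)) scale. Ccl2 was 15.5, 45.7 and 32.8 times as high at D0 as at D3 in the 3 lines, and Cxcl12 3.08, 3.51 and 5.22 times.

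The fibroblast markers were lower at D3 as well, 12, 14 and 13 of 16 in the WT, KD-labelled and AP3 lines. Their sum at D3 was 0.326, 0.235 and 0.206 of the D0 value without Sparc, and 2.00, 2.81 and 0.822 of it with Sparc. The sum of the 8 genes was 0.171, 0.126 and 0.0545 of its D0 value, by which they were chosen. In the NF-kB list, 15, 13 and 17 of 30 genes were lower at D3, and 1, 1 and 0 were higher. Of 28 interferon response genes, 11, 12 and 19 were lower and 4, 2 and 4 higher, and their summed level went from 157, 142 and 199 RPKM at D0 to 206, 171 and 164 RPKM at D3. Bst2 made up over 0.5 of each of these sums, and without it, left out after its values had been seen, the other 27 genes summed to 72.0, 61.4 and 85.8 RPKM at D0 and to 66.0, 58.7 and 58.9 RPKM at D3. The ESCs were off the feeder layer for 1 passage only, the medium changed and the cells differentiated between D0 and D3, and the parts of these in the lower levels cannot be told apart.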

How the data were processed

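RNA-Seq of 6 libraries was analysed, 1 per condition. The authors selected poly(A) RNA, sequenced TruSeq libraries with single-end reads and aligned them to mm9 with TopHat and Bowtie 0.12.7, with up to 2 mismatches and up to 20 locations per read. Gene-level RPKM, computed by Cufflinks 1.3.0, are the values that the authors deposited. Their 6 columns of log2 ratios between lines were not used. The 8 genes and the 12 gene lists were chosen with earlier results of these data known. Log2 differences used a pseudocount of 0.001 RPKM and a threshold of 1.5-fold. Depth was estimated from the steps of low RPKM values on 3696 genes with 1 transcript over 1.5 kb, taking 200 bases off each transcript, and gave the reads, exact Poisson intervals and exact binomial ratio intervals (95%, counting error only). The read numbers are approximate for genes with several transcripts. Depth estimates and intervals were tested on simulated Poisson reads. The depth simulation used the same transcript lengths, less the same 200 bases, as the estimate, so these assumptions were not tested. Named genes were the 8 members, other ligands with at least 1 RPKM or next to a member, the 5 genes most like Cxcl1 and Ccl2, and at most 4 examples per list by level and by difference in AP3 against WT at D0 (a few others are named as receptors, overlapping genes or markers). Alternatives were pseudocounts of 0.1 and 1, at least 1 RPKM in 1 of 2 libraries, median centring, a 2-fold threshold and values summed per symbol. Python 3.11.15, pandas 2.3.3 and scipy 1.17.1 were used.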

Additional observations from a re-analysis of the deposited data

Results flagged for a closer look

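For some genes a difference between 2 lines had one sign in ESCs and the other in EBs. With 1 library per condition, the difference between the 2 times was not tested. Cxcl12 in AP3 against WT had a log2 difference of 0.66 at D0 and -0.09 at D3, a shift of -0.76. Ccl2 in the library labelled KD against WT went from 0.75 to -0.80 (shift -1.55), and Cxcl10 in the same pair from -0.32 to 1.52 (shift 1.85). In AP3 against the KD-labelled library, Cxcl5 went from 3.53 to -0.51 (shift -4.04) and Cxcl10 from 2.03 to -0.87 (shift -2.90). In each of these 5 cases the counting interval includes equal levels at D0 or at D3. For Cxcl12 the D3 interval runs from -0.31 to 0.11, and for the others the D3 values rest on 20 estimated reads or fewer per library.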

How the results depend on the processing

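No paired analysis was possible because the labels carry no replicate numbers beyond 1 library per condition, and no library could be left out for the same reason. Of 54 recomputed counts of members past the threshold, 47 stayed within 1.5 times the reported count, 7 moved and 0 reversed, and of 339 recomputed single differences 309 were the same, 30 moved and 0 reversed. In the library labelled KD against WT at D0, the count went from 4 to 1 under a 2-fold threshold. At D3, the count for AP3 against WT went from 7 to 1 with a pseudocount of 1 and to 1 with at least 1 RPKM, that for KD against WT from 3 to 1 under either, and that for AP3 against KD from 5 to 2 under either. Pseudocount 1 shrinks differences of low genes, and the RPKM minimum leaves 2 or 3 members. The counts for AP3 against WT and against KD at D0 and for D3 against D0 kept within 1.5 times under each alternative. At D3, depth limits what can be said of any member but Cxcl12.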

Other observations

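Of 8 AP-1 genes, whose products join NF-kB at several inflammatory promoters, 2 were lower and 1 was higher past 1.5-fold in AP3 against WT ESCs. Fos was at 149, 122 and 66.3 RPKM in WT, the library labelled KD and AP3 in ESCs, and at 1.99, 1.31 and 1.15 RPKM in EBs. Fosb was at 68.3, 62.0 and 32.7 RPKM in ESCs and at 0.129, 0.106 and 0.117 RPKM in EBs. Fos and Fosb were the 2 lower in AP3, and Fosl2 was the 1 higher, at 6.33, 6.03 and 11.1 RPKM. From D0 to D3, 8, 7 and 7 of the 8 AP-1 genes were past 1.5-fold lower in the 3 lines.

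The ESC and EB markers at D0 give the state of the cells in which the 8 genes were compared. Of 7 ESC markers, 2 were past 1.5-fold lower in AP3 than in WT at D0, Klf4 at 121, 131 and 65.9 RPKM and Sox2 at 191, 196 and 110 RPKM. The 8 EB markers summed to 66.6, 72.0 and 40.4 RPKM at D0 and to 164, 196 and 197 RPKM at D3. In AP3 against WT at D0, 3 of them were past 1.5-fold lower (Lefty2, Otx2 and Fgf5), 1 was higher (T) and 4 were within. Lefty2, a target of Nodal and the most abundant of the 3 in WT, was at 22.1, 21.3 and 3.27 RPKM at D0. Dnmt3b, the most abundant of the 8 in WT, was at 34.0 RPKM in WT and 30.7 in AP3.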
